A study of Mus musculus with 44 samples.

Results

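Genes of the myelin sheath were followed through every library of the series: Mbp, Mog, Mag, Cnp, Mobp, Mal and Cldn11. They were taken by matching the RefSeq identifiers of the count and tail tables to these mouse symbols, and all 7 were found among the 17158 transcripts that the tables list. The set had been built around Mbp, which was chosen by its poly(A)-tail lengths in dark-housed and light-exposed mice. The values of Mbp in those mice are therefore given as a description. Its place in counts of called genes there is stated, but nothing is read from it.

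Myelin is the spiral of membrane that oligodendrocytes wrap around axons in the central nervous system, where it speeds conduction. Mbp encodes myelin basic protein, which holds the cytoplasmic faces of the sheath together, and its mRNA is a classic example of an mRNA carried into cell processes and translated there. Mobp encodes another basic protein of compact myelin, and Cnp encodes a phosphodiesterase of the non-compact, cytoplasm-filled channels. Mag and Mog are immunoglobulin-family membrane proteins of the inner, axon-facing layer and of the outermost layer, respectively. Mal encodes a membrane-raft proteolipid, and Cldn11 encodes the claudin that seals the layers of central myelin with tight junctions. Myelination in the mouse brain starts after birth, and mature oligodendrocytes are the main source of these mRNAs in brain, for Mbp of its classic mRNA. The Mbp transcript listed in these data differs from classic Mbp mRNA, as described below.

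The data comprise 12 RNA-seq libraries, 12 libraries of ribosome-protected fragments (RPFs), and tail-length libraries made by TAIL-seq (10) or by PAL-seq v2 (10), which both read the poly(A) tail of each captured mRNA 3′ end. The tissues were hippocampi of embryos at embryonic day 16, hippocampus of an adult male mouse and cortex of an adult male mouse, all of the C57BL/6J strain and without a transgene. The 9 cultures were cortical neurons from newborn pups, treated with AraC, which removes dividing cells. Of these, 6 were used after 14 days in vitro (DIV14), namely an unstimulated one, one given BDNF, one given glutamate with glycine, and 3 that carried a lentivirus in which the synapsin promoter drove GFP, miR-155 or miR-1. The other cultures were used at DIV10, either unstimulated or with KCl for 10 or 30 min. Each tissue and culture had 1 library per assay, so only counting error can be given for them. Visual cortex came from 8 separate mice that were 6 to 7 weeks old and had been kept in the dark, 4 of which were killed in the dark and 4 after 1 h of light. The 2 RPF libraries whose labels disagree about the culture were left out of every comparison.

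Counts on genes ranged from 448022 to 7689624 for RNA-seq, 817114 to 23212489 for RPFs, 389654 to 1057812 for TAIL-seq and 86841 to 4812273 for PAL-seq, with the lowest PAL-seq total in embryonic hippocampus. The tissue labels were checked with oligodendrocyte genes that are not among the 7. Ugt8a, which makes the myelin lipid galactosylceramide, was at 17.2 RPKM (reads scaled to library size and to the length of the counted reading frame) in adult cortex and 11.9 in adult hippocampus, but at 0.571 in embryonic hippocampus and 0.269 in the unstimulated DIV14 culture. Of the visual cortex libraries, dark mouse 1 stood apart for oligodendrocyte genes, and the tag results of the light comparison are given with and without it.

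Each gene was represented by 1 transcript on the mm10 genome. Mog (NM_010814) lies on the minus strand of chromosome 17 from 37010740 to 37023398, Mag (NM_010758) on the minus strand of chromosome 7 from 30899180 to 30914922, and Cnp (NM_001146318) on the plus strand of chromosome 11 from 100575891 to 100581739. Mobp (NM_008614) lies on the plus strand of chromosome 9 from 120149742 to 120176097, Mal (NM_010762) on the minus strand of chromosome 2 from 127633226 to 127656695, and Cldn11 (NM_008770) on the plus strand of chromosome 3 from 31149920 to 31164326. Because the tail data read the 3′ ends of mRNAs, the stretch around the poly(A) signal, the hexamer that directs cleavage and polyadenylation, is shown for the members that have AATAAA or ATTAAA in the last 50 nt of the annotated 3′ UTR. The windows are from RefSeq on GRCm38.p6, written 5′ to 3′ on the mRNA strand, with the hexamer in capitals.
Mag, chr7:30899181-30899205, minus strand: catgaAATAAAtgtcctaatgacaa
Cnp, chr11:100581704-100581728, plus strand: actgaAATAAAtcatgttaatccca
Mobp, chr9:120176068-120176092, plus strand: aactcAATAAAtacttgctgactga
Mal, chr2:127633228-127633252, minus strand: taatcATTAAAagaaactttcatac
Cldn11, chr3:31164295-31164319, plus strand: tgtgcAATAAAataacaaactgtct
The hexamer ended 15 to 25 nt before the annotated 3′ end, at 15 nt for Mag and 25 nt for Cnp. No such hexamer was found in that stretch of Mog. Among 16586 annotated 3′ UTRs, 65.2% had AATAAA and 15% had only ATTAAA in the last 50 nt, searched on the mRNA strand.

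The identity of the Mbp transcript affects what each assay could see. Mbp was represented by NM_001025245, on the plus strand of chromosome 18 from 82475123 to 82558703, a transcript that starts at the upstream promoter of the locus (the golli promoter). Another 6 RefSeq transcripts, those of classic myelin basic protein, start 79340 or 79385 nt further downstream. The counted reading frame of 538 nt shared 171 nt (31.8%) with the coding sequence of those classic transcripts, all in the same frame. It shared 520 nt with the coding sequence of the longer golli-type transcript NM_010777. The counted frame also covered classic 5′ UTR, since the classic coding sequence starts 79.457 kb after the listed start. RNA-seq reads and RPFs of Mbp could therefore come in part from classic Mbp mRNA. Such reads could come from its 5′ UTR and the 171 nt, but RPFs of its coding sequence only from the 171 nt. The 3′ UTR of the listed transcript, from 82554769 to 82558703, shared 0 nt with the exons of the other Mbp transcripts, whose 3′ UTR lies at 82584157 to 82585637. Tail tags of Mbp therefore came from a 3′ end that is separate from that of classic Mbp. Which cells that 3′ end came from was not tested. Exons of another annotated gene, Gm52337, overlap exons of the listed transcript.

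**Figure D1:**
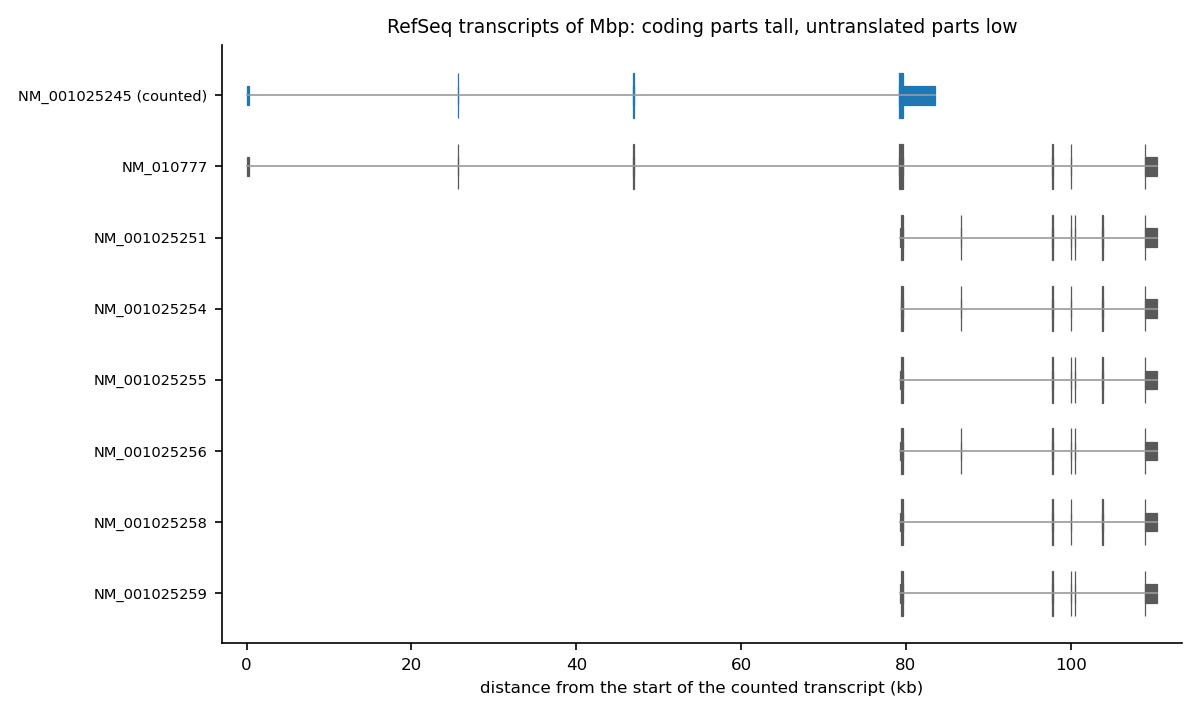
Exons of the 8 RefSeq Mbp transcripts against distance in kb from the start of the listed transcript NM_001025245, with coding parts drawn taller. The listed transcript shares 171 nt of its counted reading frame with the coding sequence of the classic transcripts that begin 79340 or 79385 nt downstream. Its 3′ UTR lies apart from theirs.

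The first question was where the myelin mRNAs were found. By RNA-seq, all 7 were abundant in adult brain. In embryonic hippocampus and in cultures they were at or near the detection limit, apart from a clear signal of Cnp in both and of Mbp in embryonic hippocampus. The deeper RPF libraries of the cultures with settled labels held 20 to 52 RPFs of Mbp. In adult hippocampus, Mbp was at 314 RPKM (3324 reads), Mobp at 191 (738 reads) and Cnp at 145 (3289 reads). Mal was at 61.1 RPKM, Cldn11 at 56.5, Mag at 37.9 and Mog at 37.2 in the same library, with overlapping 95% counting intervals within the pairs Mal and Cldn11, and Mag and Mog. In adult cortex, the order was Mbp at 98.4 RPKM (374 reads), Cnp at 89.0 (725 reads), Mobp at 88.1 (122 reads), Cldn11 at 58.2, Mal at 55.7, Mag at 31.2 and Mog at 25.5. The intervals of Mbp, Cnp and Mobp overlapped there, as did those of Cldn11 and Mal and those of Mag and Mog. By RNA-seq, the mRNAs of the compact-myelin and channel proteins Mbp, Mobp and Cnp thus led in both adult regions. The immunoglobulin-family pair was lowest in both. By RPFs in cortex, Cldn11 (488 RPKM) stood beside Cnp (470), with overlapping intervals, and above Mobp (362). All 7 members lay between the 89.4 and 99.5 percentiles of the genes listed in these 2 libraries.

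In embryonic hippocampus, Mbp was at 8.70 RPKM (78 reads), Cnp at 8.33 (160 reads), Mobp at 0.918 (3 reads), Cldn11 at 0.627 (6 reads), Mal at 0.583 (4 reads) and Mag at 0.212 (6 reads), and Mog was listed at 0. Relative to all reads on genes, Mbp was 45.0-fold higher in adult than in embryonic hippocampus (95% counting interval, 36.0 to 57.1), and Cnp 21.7-fold (18.5 to 25.6). The ratio was 223 for Mag (102 to 609), 131 for Mal (50.8 to 483), 112 for Cldn11 (51.4 to 308) and 260 for Mobp (88.6 to 1263, on 3 embryonic reads). Mog, with 508 adult reads and none in the embryo, was at least 179-fold higher against a floor of 3 reads per library. Thus, 7 of 7 members were over 2-fold higher in the adult, as were 23.4% of 14202 genes. In a bulk sample, fewer cells of a type and less mRNA per cell cannot be told apart.

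The RPFs had the same direction. Mbp had 22979 RPFs in adult and 143 in embryonic hippocampus, a 172-fold difference (146 to 204), Cnp had 20690 and 372 (59.6-fold, 53.8 to 66.2), and Mobp had 1930 and 22 (94.0-fold, 61.9 to 150). Cldn11 had 3968 adult RPFs and 1 in the embryo. Mag (6932 adult RPFs), Mal (1862) and Mog (1172) were not listed in the embryonic RPF table, and no fold is given for them because the hippocampal RPF tables omit many low genes: of genes with 7 to 9 RNA-seq reads, 121 of 377 were listed for embryonic hippocampus and 688 of 691 for adult cortex. All 4 members listed in both RPF tables were over 2-fold higher in the adult, Cldn11 on 1 embryonic RPF. Of 13025 genes, 30.9% were over 2-fold higher. That share includes genes listed at a single age, whose missing counts were raised to the floor, so it is not a matched background for the 4 members.

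Tail tags gave less information at these ages. Embryonic hippocampus had 3 Mbp tags and none of the other 6 members, whereas adult hippocampus had 93 tags of Mal, 76 of Cldn11, 51 of Cnp, 13 of Mag, 8 of Mbp, 7 of Mog and 7 of Mobp. Against a floor of 3 tags, Mal was at least 12.1-fold higher in the adult, Cldn11 at least 9.92-fold and Cnp at least 6.65-fold. These 3 of 7 members passed 2-fold, against 15.1% of 8117 genes. The Mbp tags gave a ratio of 1.04 (0.251 to 6.11), which does not resolve a difference at this depth. That value stood apart from the 45.0-fold difference of its RNA-seq reads, which can include classic Mbp mRNA.

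**Figure D2:**
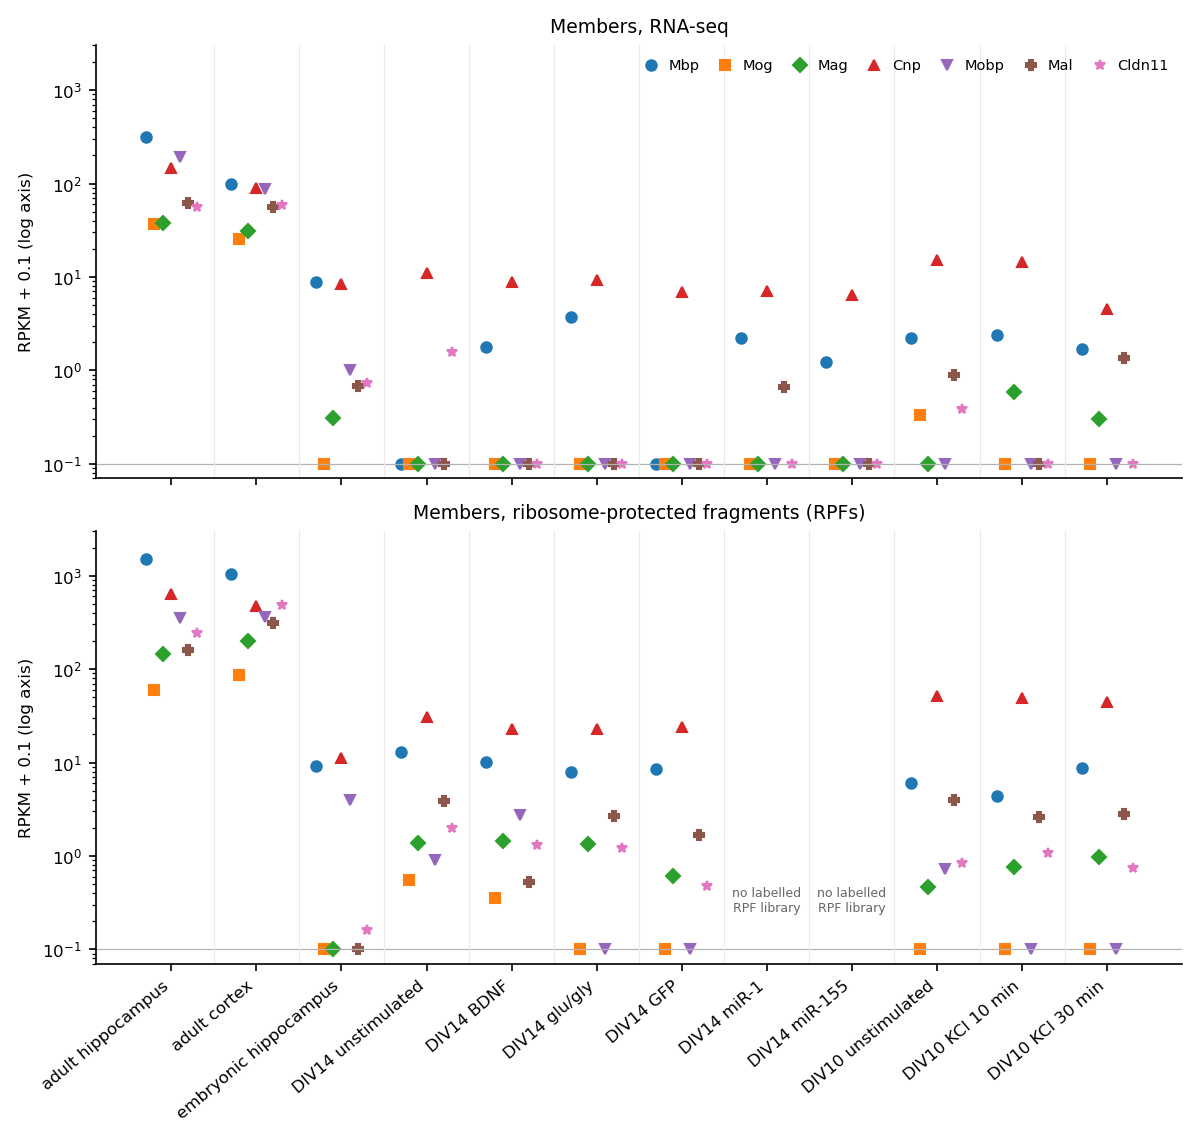
RNA-seq and RPF levels of the 7 members in RPKM, on a log axis, in adult cortex, adult and embryonic hippocampus and the cultures, with 1 library per point. Adult tissues sit above embryonic hippocampus and the cultures for all 7, and Cnp is the member with the highest culture values.

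The members were low in the cultured cortical neurons. Mobp had 0 RNA-seq reads in 9 of 9 cultures, which allows up to 3 reads per library. Mog was listed in 1 culture, Mag and Cldn11 in 2 each, Mal in 3 and Mbp in 7, with at most 7 reads in any of them. Cnp was listed in all 9, with 19 to 106 reads and a level of 4.48 to 15.1 RPKM (median 8.73). The RPF libraries, which were deeper, gave values for more members in the 7 cultures whose labels are settled. Cnp ranged from 22.7 to 51.2 RPKM (median 30.6), on 124 to 960 RPFs, and Mbp from 4.33 to 13 RPKM (median 8.44), on 20 to 52 RPFs. Mag had 4 to 14 RPFs, Mal 1 to 26, Cldn11 1 to 7, Mobp 0 to 3 and Mog 0 to 2. In the 9 TAIL-seq libraries, Cnp had 10 to 32 tags, Mal 2 to 20, Mbp 5 to 12, Cldn11 1 to 10 and the others at most 2. Summed over the members, RNA-seq reads made up 42.3 to 98.2 CPM (counts scaled to the library's total on genes) in cultures, 33.4 in embryonic hippocampus, 1240 in adult cortex and 1410 in adult hippocampus.

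Adult cortex was set against the unstimulated DIV14 culture, the same library that serves as control for the DIV14 stimulations. Cnp was 7.19-fold higher in cortex by RNA-seq (4.99 to 10.7), and the RPF ratio was 14.2 (12.4 to 16.3). Mbp had 5790 RPFs in cortex and 45 in culture, a 74.4-fold difference (55.5 to 102), and its RNA-seq reads were at least 37.1-fold higher against the floor. The RPF ratio was 145 for Mag (86.6 to 266), 238 for Cldn11 (115 to 593) and 75.7 for Mal (41.0 to 158). With 2 culture RPFs the ratio was 179 for Mog (49.4 to 1481), and with 1 it was 422 for Mobp (75.5 to 16700). By RPFs 7 of 7 members were over 2-fold higher in cortex, as were 12.6% of 13931 genes, and by RNA-seq 7 of 7 were, as were 13.6% of 12375 genes. Tail tags also had 7 of 7 higher, against 15.6% of 11225 genes, with Cnp at 9.36-fold (6.35 to 14.2), Mal at 53.9-fold (29.7 to 109), Cldn11 at 73.5-fold (35.2 to 184) and Mbp at 7.82-fold (4.13 to 16.1). Cnp had the smallest ratio by RNA-seq and RPFs, and by tail tags the intervals of Mbp and Cnp, the members with the smallest ratios, overlapped.

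Between the adult regions, the members differed less. Mbp reads in cortex were 0.479 times those in hippocampus (0.430 to 0.533), the only member past 2-fold lower, where 9.18% of 13647 genes were. The ratio of cortex to hippocampus was 0.704 for Mobp, 0.939 for Cnp, 1.05 for Mog, 1.26 for Mag, 1.39 for Mal and 1.57 for Cldn11. By RPFs, Cldn11 (2.10) and Mal (2.03) were past 2-fold higher in cortex, as were 27.0% of 13811 genes, and Mbp was at 0.728. These ratios depended on the total they were taken over. With the authors' RPM, whose total includes other mapped reads, Mbp and Mobp were past 2-fold lower in cortex, at a log2 ratio of −1.67 and −1.12, and Mog, Mag and Mal lay under 1, at −0.54, −0.28 and −0.13. The hippocampal RNA-seq used poly(A)-selected RNA and the cortical RNA-seq rRNA-depleted RNA, so region and RNA selection cannot be told apart.

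Stimulation of the cultures was described for Cnp, the only member with at least 19 RNA-seq reads in each culture. BDNF gave 150 RPFs of Cnp against 227 in the unstimulated DIV14 culture, a ratio of 0.775 (0.626 to 0.957), and an RNA-seq ratio of 0.778 (0.428 to 1.39). Glutamate and glycine gave RPF and RNA-seq ratios of 0.842 (0.671 to 1.05) and 0.761 (0.435 to 1.32), and GFP lentivirus 0.816 (0.651 to 1.02) and 0.719 (0.383 to 1.32). These comparisons share their control library. The DIV10 culture had 1.94 times the Cnp RPFs of the DIV14 culture (1.67 to 2.25) and 1.51 times its reads (0.998 to 2.35). KCl for 10 min gave an RPF ratio of 1.08 (0.972 to 1.19) and a read ratio of 0.847 (0.573 to 1.23), and KCl for 30 min gave 0.897 (0.782 to 1.03) and 0.420 (0.270 to 0.635). Only the last passed 2-fold, on 30 against 106 reads, where 9.51% of 12326 genes were as far down, among them 8 of 21 other oligodendrocyte genes and 3 of 4 endothelial and mural genes. The part of these cell types in the Cnp ratio was not tested. By RPFs, Mal was at 0.117 times the unstimulated level with BDNF (0.00270 to 0.825, on 1 against 10 RPFs), 1 of 5 members tested, where 4.26% of genes were over 2-fold lower. With GFP lentivirus, Mag (0.420) and Mal (0.441) were over 2-fold lower, as were 6.09% of genes and 6 of 9 microglial genes, and at DIV10 against DIV14 Mag (0.327) and Cldn11 (0.458) were, as were 5.46%. Mag was over 2-fold higher after KCl for 10 min (2.06, 0.817 to 5.33) and for 30 min (2.49, 0.853 to 7), where 3.34% and 3.87% of genes were. Each of these rests on at most 14 RPFs per library, and the counting intervals include 1 for all but Mal with BDNF and Mag at DIV10. With 1 library per culture, none of these ratios has a replicate check.

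Other genes of the lineage were read from lists. Of 37 further oligodendrocyte and myelin genes, 34 were over 2-fold higher and 1 lower in adult than in embryonic hippocampus by RNA-seq (23.4% and 26.2% of all genes tested), with a median log2 ratio of 4.31 against −0.20 over all genes. In adult cortex against the DIV14 culture, 27 of 37 were higher by RNA-seq (median log2 ratio 1.57 against −0.33) and 33 by RPFs (4.32 against −0.06). Trf, the iron carrier transferrin, was at 61.8 RPKM in adult cortex and 3.73 in the culture, and Apod, a lipid carrier, at 36.5 and 1.63. Of the precursor-cell genes, 12 of 20 were higher and 5 lower in adult than in embryonic hippocampus. Olig1, a transcription factor of the lineage, was at 24.6 RPKM in the adult and 2.54 in the embryo, Bcan, a matrix proteoglycan, at 44.1 and 15.2, and Tnr, a matrix glycoprotein, at 25.6 and 7.41. Ncan, another matrix proteoglycan, was at 25.4 RPKM in the adult and 94.8 in the embryo, and Ptprz1, a receptor phosphatase, at 18.4 and 34.0.

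Genes for the lipids of myelin did not share that direction as a list. Of 18 lipid-synthesis genes, 5 were over 2-fold higher and 10 lower in adult hippocampus (23.4% and 26.2% of all genes), and 5 were higher and 9 lower in adult cortex than in the culture by RPFs, where 12.6% and 13.5% of all genes were. Ugt8a was higher in adult cortex, as given above, whereas Hmgcs1, an early enzyme of the sterol pathway, was at 78.3 RPKM in adult cortex and 275 in the culture. Of 14 axonal genes of nodes, paranodes and the axon itself, 11 were higher and 1 lower in adult hippocampus (23.4% and 26.2% of all genes), and 8 were higher and 0 lower in adult cortex than in the culture by RNA-seq (13.6% of all genes were higher). Kcna2, a potassium channel of the juxtaparanode, was at 28.8 RPKM in cortex and 1.46 in the culture. Of 11 genes for RNA-binding proteins and kinases that act on myelin mRNAs, 0 were higher and 6 lower in adult hippocampus, where 26.2% of all genes were lower. Hnrnpa2b1, which binds the transport element of Mbp mRNA, was at 148 RPKM in adult and 696 in embryonic hippocampus. Peripheral myelin genes were low, with Pmp22, a membrane protein of Schwann cell myelin, at 1.96 RPKM in adult cortex and 5.16 in adult hippocampus.

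Genes of other cell types moved with some of these comparisons. Microglial genes were higher in 12 of 12 cases in adult hippocampus, and in 12 of 12 by RPFs in adult cortex against the culture. C1qa, a complement component made by microglia, was at 18.1 RPKM in cortex and 2.46 in culture. Astrocyte genes were higher in 10 of 12 cases and lower in 2 in adult hippocampus, and 4 were higher and 3 lower by RPFs in adult cortex against the culture. Neuronal genes were higher in 9 of 12 cases and lower in 2 in adult hippocampus, and endothelial and mural genes were higher in 3 of 12 and lower in 7. In adult cortex against the culture, 9 of 12 endothelial and mural genes were higher and 2 lower by RPFs. By RNA-seq, 2 of 11 were higher there and 3 lower. The shares of all genes were those given for the oligodendrocyte, lipid and axonal lists, except the share lower by RNA-seq in cortex against the culture, which is not reported here. The part of these other cell types in the ratios of the myelin genes was not tested.

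The second question was how well the mRNAs were translated. Translational efficiency (TE) was the log2 ratio of RPF to RNA-seq RPM (reads scaled to the library's mapped reads) taken where the RNA-seq value reached 10 RPM, a cutoff that all 7 members passed in adult cortex and adult hippocampus. In adult cortex, 7 of 7 members lay above the median log2 TE of 1.31 over 5019 genes. Mbp was highest at 3.41 (counting interval, 3.26 to 3.57; percentile 98.9), followed by Cldn11 at 3.07 (97.8), Mag at 2.69 (94.5), Mal at 2.47 (91.0), Cnp at 2.4 (89.1), Mobp at 2.04 (78.3) and Mog at 1.77 (68.9). In adult hippocampus, 5 of 7 lay above the median of 0.88 over 6342 genes. Mbp was again highest at 2.28 (2.23 to 2.33; percentile 96.2), then Cnp at 2.14 (94.3), Cldn11 at 2.12 (94.0), Mag at 1.94 (90.3) and Mal at 1.4 (71.4). Mobp at 0.88 (percentile 49.9) and Mog at 0.69 (42.7) were the exceptions, and these 2 were also the lowest of the 7 in cortex. The counting interval of Cldn11 overlapped that of Mbp in cortex (2.88 to 3.27) and in hippocampus (2.00 to 2.25). The Mbp value rests on a reading frame that it shares in part with classic transcripts, so it is a ratio over a mixture of mRNAs. The counted frame holds classic 5′ UTR and the classic start codon, so the first 50 nt of the classic reading frame were not left out. The 2 regions were not compared in TE because their RNA selection differed.

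**Figure D3:**
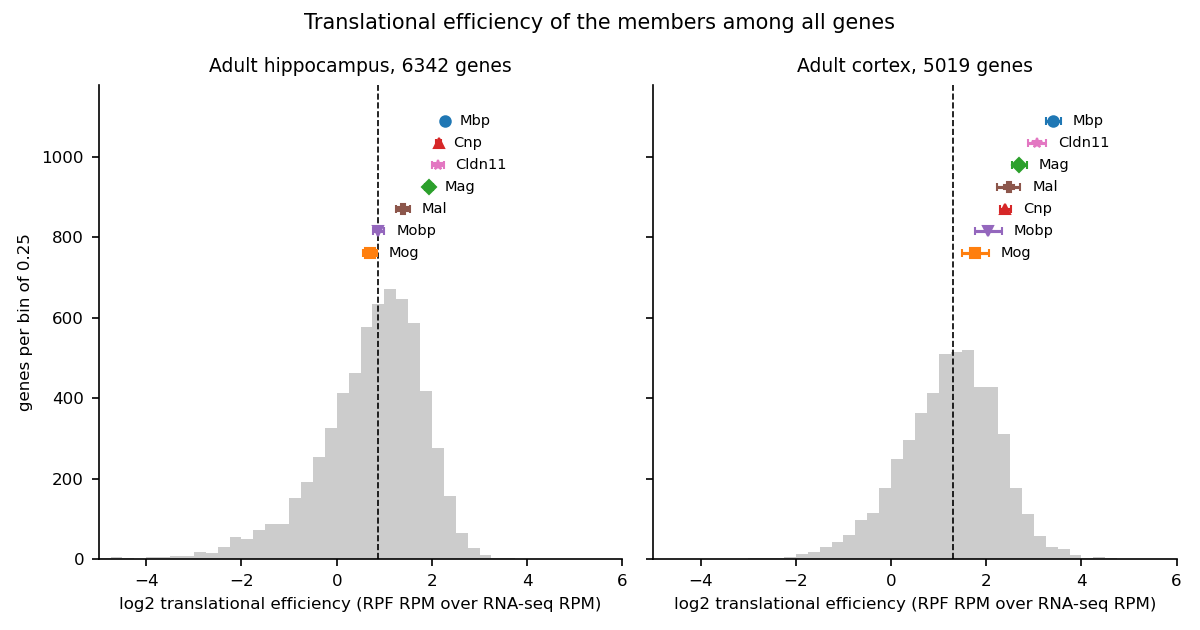
log2 TE of the 7 members in adult cortex and adult hippocampus, with counting intervals as bars and the median over all genes of each library marked. All 7 lie above the median in cortex, and Mobp and Mog lie at or under it in hippocampus.

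The start-codon context is shown as a description for the 6 members other than Mbp, and its part in their TE was not tested. It runs from 10 nt before to 4 nt after the start codon, from RefSeq on GRCm38.p6, with the start codon in capitals.
Cldn11: tgcggccaccATGgtag
Mag: gctaaacaagATGatat
Mal: gctcgcaggcATGgctc
Cnp: cttcaggaaaATGtcat
Mobp: acccagtgagATGagtc
Mog: aaccataaagATGgcct
The order is that of TE in adult cortex. A purine stood 3 nt before the start codon in 6 of 6, as in 86.2% of 16656 transcripts. A G directly after it was found in Cldn11, Mal and Mog, which include the second-highest and the lowest TE of the 7, and in 51.2% of those transcripts.

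Among the cultures, only Cnp passed the cutoff. Its log2 TE was 1.47 (0.92 to 2.07; percentile 64) in the unstimulated DIV14 culture, 1.38 with BDNF, 1.32 with glutamate and glycine, 1.76 (1.47 to 2.07; percentile 75.5) in the DIV10 culture and 1.76 after 10 min of KCl. The counting intervals of all 5 overlapped. No member passed the cutoff in embryonic hippocampus, where Cnp came closest at 9.60 RPM.

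The third question was the length of the poly(A) tails. In the TAIL-seq library of adult cortex, 5 members had the 50 tags required for a mean. Mbp had a mean tail of 118 nt (54 tags, percentile 95.1 of 2829 genes), Cldn11 111 nt (296 tags, percentile 86.0), Mal 105 nt (341 tags, 67.3), Mog 101 nt (52 tags, 56.3) and Cnp 96.1 nt (167 tags, 38.3). The median over genes was 99.5 nt, so 4 of 5 members were above it. Mag and Mobp had 40 tags each. In adult hippocampus, where the deposited PAL-seq values are all multiples of 0.5 nt and were read as medians rather than means, Cldn11 was at 69.5 nt (percentile 90.3 of 951 genes), Cnp at 64 nt (79.3) and Mal at 55 nt (53.7), against 54 nt over genes. Because a median and a mean differ in these skewed distributions, the nt values of cortex and hippocampus are given side by side only. Cldn11 was in the upper part of the ranking in both. In the visual cortex libraries described below, which had more genes with 50 tags, its percentile ran from 28.3 to 63.6.

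The tail libraries also counted the members differently from RNA-seq. In adult cortex, tag CPM divided by RNA-seq RPKM came to 0.915 for Mbp and 0.757 for Mobp, 2.13 for Mag, 3.13 for Cnp, 3.40 for Mog, 8.48 for Cldn11 and 10.2 for Mal, where the median of 5019 genes was 5.47. The percentiles of Mbp (7.49) and Mobp (6.65) were thus low, and that of Mal (90.2) high. For Mbp, the RNA-seq reading frame and the 3′ UTR that collects tags belong to different sets of transcripts, as described above.

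The last comparison was between visual cortex of dark and light-exposed mice, where there were 4 mice in each group. The light label was checked with immediate-early genes, of which 11 of 11 had more tags in the light. In the dark, Mbp tags were at 87.5, 107, 108 and 119 CPM (scaled by TMM) in mice 1 to 4, and in the light they were 91.7, 87.6, 152 and 151. Light mice 3 and 4 were above all dark mice and light mice 1 and 2 were within the dark range, so the groups overlapped. The log2 difference of Mbp, light over dark, was 0.21.

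The other 6 members had lower mean tag levels in the light, but none passed the test. Mag, at 76.6 ± 35.5 CPM in the dark and 53.0 ± 14.1 in the light (mean ± SD, n = 4 mice each), had a log2 difference of −0.55 (SE 0.23, adjusted p = 0.419 by edgeR's quasi-likelihood test with Benjamini-Hochberg adjustment). The log2 difference was −0.46 for Mal, −0.31 for Cnp, −0.29 for Cldn11, −0.25 for Mobp and −0.20 for Mog. With edgeR and with DESeq2, 0 of these 6 members had changed tags at an adjusted p of 0.05, and with edgeR 1 (Mag) had an unadjusted p under 0.05. Over 9554 genes, 1.21% were called higher and 0.126% lower. The groups overlapped for all 7.

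One dark mouse carried much of the lower means. Mal was at 862, 374, 292 and 262 CPM in dark mice 1 to 4 and at 427, 216, 375 and 284 in light mice 1 to 4, and Cldn11 was at 503, 285, 268 and 224 in the dark and 346, 185, 330 and 186 in the light. Dark mouse 1 was the highest of the 8 mice for each of the 6 members other than Mbp, and for Mbp it was near the lowest, beside light mouse 2. Their summed level was 1999 CPM in dark mouse 1 and 628 to 1205 in the other 7 mice. The same mouse was highest for 29 of 34 other oligodendrocyte genes, whose sum was 5458 CPM there and 2998 to 4329 elsewhere. Astrocyte genes summed to 5285 there and 3973 to 4384 elsewhere, and neuronal genes to 13303 there and 13842 to 15092 elsewhere. Without dark mouse 1, the log2 difference was −0.22 for Mag, −0.05 for Cnp, 0.057 for Mal, 0.0050 for Cldn11, 0.22 for Mobp and 0.022 for Mog. The median log2 difference of the members was 0.02 without that mouse, from −0.29 with it, and that of the other oligodendrocyte genes was −0.14, from −0.35. How much of each mouse's cortical sample was oligodendrocyte-rich tissue cannot be read from the labels, and its part in these values was not tested.

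**Figure D4:**
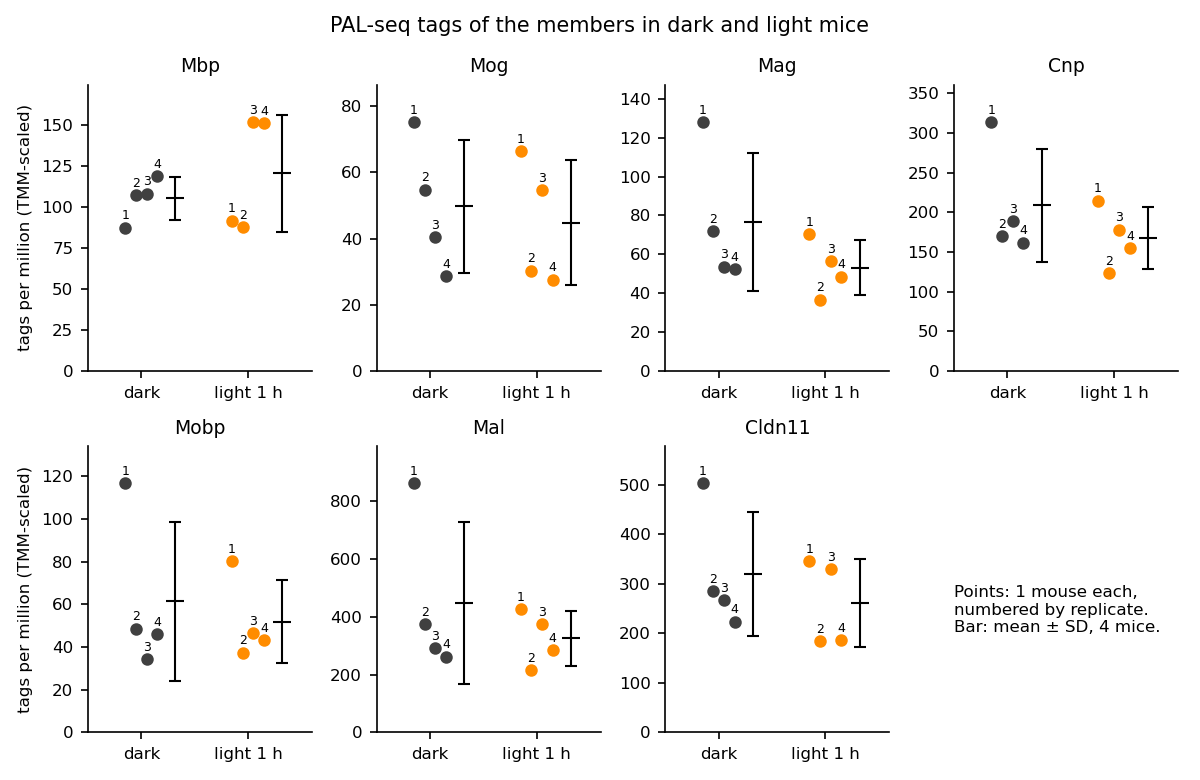
PAL-seq tag CPM (TMM-scaled) of the 7 members in 4 dark and 4 light mice, 1 point per mouse with its number, and the mean ± SD as bars beside them. Dark mouse 1 is highest for 6 of 7 members, and for Mbp it is among the lowest, at 87.5 CPM beside 87.6 in light mouse 2.

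Mbp also departed from the others in how its tags varied from mouse to mouse. Over the 8 mice, the 15 pairs among the other 6 members had a Pearson r of log2 tag levels of 0.762 to 0.973 (median 0.910), whereas Mbp with each of them had −0.442 to −0.301. Over the 12 RNA-seq libraries, the 21 pairs of all 7 members had an r of 0.922 to 0.997 (median 0.965). These values are descriptive, since the RNA-seq points share the contrast of adult tissue with cultures and embryo, and the mice share dark mouse 1. For Mbp, tags and RNA-seq reads are also unlike measures. Its tags came from a 3′ end separate from that of classic Mbp, whereas its reads can include classic Mbp mRNA. Among 8815 genes, the 10 with the highest mean r to the members over the RNA-seq libraries included Gjb6 (0.98), Mfsd4a, Hapln4, Zfp831, Ermn, Fa2h, Septin4, Ptgds and Ugt8a (0.96). Over the mice they were Tspan2 (0.76), Rapgef4, Bcas1, Ttyh2, Smim8, Efhd1, Qdpr, Trf, Stard3nl and Gatm (0.73), among 9554 genes.

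Mbp was chosen for its tails in these mice. Its tags came from the 3′ end of the listed transcript, so the tails are not those of classic Mbp mRNA. In the dark, its mean tail was 87.1, 96.2, 79.4 and 86.3 nt in mice 1 to 4 (129, 520, 139 and 150 tags), and in the light it was 106, 124, 130 and 97.3 nt (112, 136, 264 and 252 tags). All 4 light mice were above all 4 dark mice although light mouse 4, at 97.3 nt, was close to dark mouse 2, at 96.2 nt. The mean was 87.3 ± 6.91 nt (SD, n = 4) in the dark and 114 ± 15.3 nt (n = 4) in the light, a difference of 27.1 nt. Among the genes with at least 50 tags in the respective mouse, Mbp lay at percentiles 30.8, 70.3, 58.7 and 75.3 in the dark and 98.2, 98.5, 98.7 and 93.5 in the light. For background, light mice were all above dark mice for 0.602% of 4321 genes, and 0.231% of them were called longer at an adjusted p of 0.05 by limma, Mbp being one of these 10. Since these tails chose Mbp, that call is no evidence. With any one mouse left out, the difference in means was 21.7 to 32.7 nt. None was called shorter, with 170 genes of either direction at an unadjusted p under 0.05.

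The tails of the other members differed less and overlapped between the groups. Cldn11, the member with the most similar means, was at 92.1, 91.2, 78.1 and 83.1 nt in the dark and 82.7, 87.9, 97.7 and 84.4 nt in the light, a difference of 2.03 nt (SE 6.68, from a variance that limma pooled over all genes). Mag was at 73.9, 85.1, 70.8 and 66.0 nt in the dark and 74.5, 92.7, 83.1 and 86.0 nt in the light, a difference of 10.1 nt, the largest of the 4 other members tested. Cnp differed by 6.35 nt and Mal by 4.16 nt, and each of these 4 had an adjusted p of 0.999 by limma with Benjamini-Hochberg adjustment, with 0 of 4 at an unadjusted p under 0.05. Mog (9.75 nt longer on average) and Mobp (6.05 nt) were not tested because a mouse had 36 and 44 tags of them, respectively. The median difference over the 4321 genes was 3.75 nt in the same direction.

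Set against the other members in the same mouse, Mbp was −5.27, 5.75, 1.39 and 7.21 nt from the median of the other 6 in the dark, and 22.8, 29.5, 28.1 and 14.0 nt in the light. These values restate the tails that chose Mbp and are given as a description only. Mbp had the longest tail of the 7 in 4 of 4 light mice and in 2 of 4 dark mice. The mean excess was 2.27 ± 5.61 nt (SD, n = 4) in the dark and 23.6 ± 7 nt (n = 4) in the light. In the unrelated adult cortex library, whose mouse had no dark or light treatment in the labels, the Mbp tail ranked at percentile 95.1 on 54 tags read by TAIL-seq, a percentile within the range of the light mice.

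**Figure D5:**
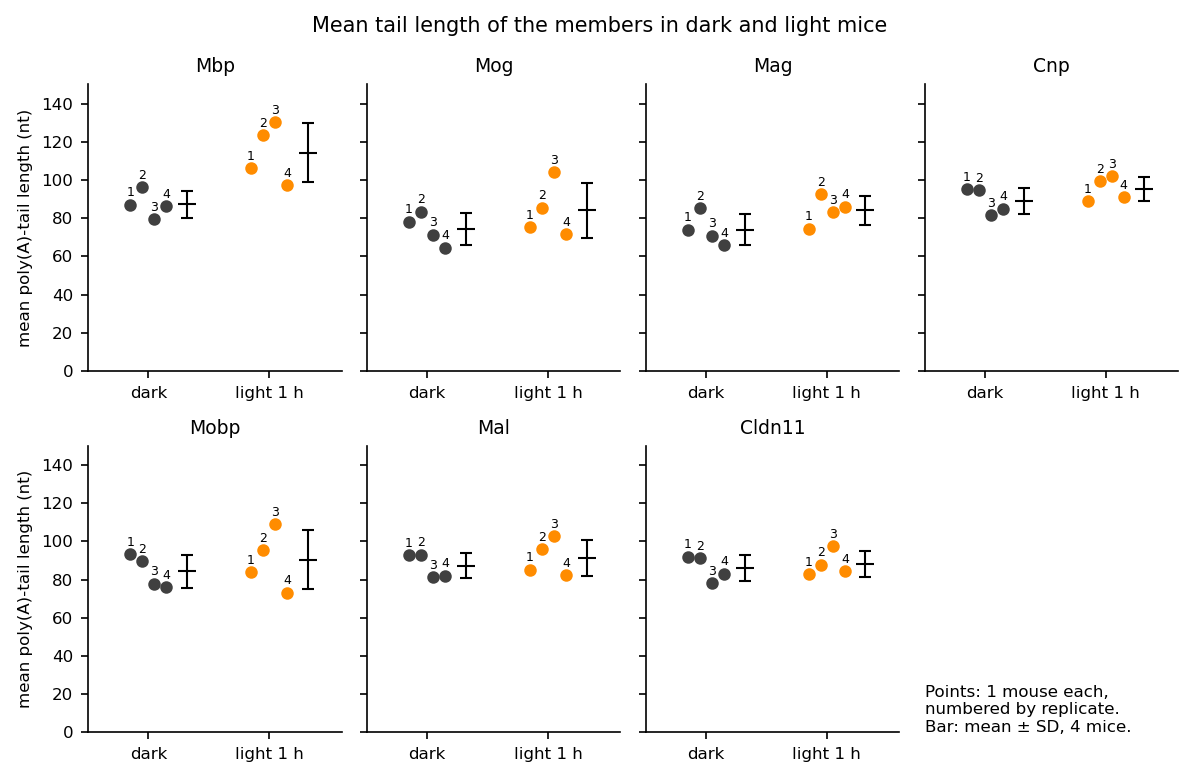
Mean poly(A)-tail length in nt of the 7 members in 4 dark and 4 light mice, 1 point per mouse with its number, and the mean ± SD as bars beside them. The groups do not overlap for Mbp (79.4 to 96.2 nt in the dark, 97.3 to 130 nt in the light) and overlap for the other 6.

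Genes of the same lineage were not called in the light. By edgeR, 0 of 34 other oligodendrocyte genes and 0 of 13 precursor genes had changed tags at an adjusted p of 0.05, with 10 and 3 at an unadjusted p under 0.05, where 903 of 9554 genes were, and DESeq2 called 0 in both lists. Of the 34 other oligodendrocyte genes, 32 had a log2 difference under 0 with dark mouse 1 and 26 without it. Among 11 astrocyte, 12 microglial and 12 neuronal genes, edgeR and DESeq2 also called 0, with 2, 0 and 0 at an unadjusted p under 0.05. Egr2, which drives peripheral myelination and is also an immediate-early gene, had a log2 difference of 5.33. Among the 17 other oligodendrocyte genes with tail values, limma called 0 and 0 had an unadjusted p under 0.05.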

How the data were processed

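The members and the gene lists were chosen with earlier results of these data known. The authors deposited, per transcript, RNA-seq and RPF read counts with RPM and RPKM values, log2 TE values, and tail tables. Per the labels and the methods, reads were aligned to mm10 with STAR (version 2.4.2 in the submitters' processing notes), 1 transcript was used per gene, and reads were counted over the reading frame without its first 50 nt. Tail tags were assigned to annotated 3′ UTRs with bedtools. The deposited tail lengths are means in nt, except for the hippocampi, where all values are multiples of 0.5 nt and were read as medians. Hippocampal RNA for RNA-seq was poly(A)-selected, and that of the adult cortex and 6 cultures was rRNA-depleted.

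Ratios between single libraries were formed from counts over the sum on listed genes, with 95% Clopper-Pearson intervals. These intervals, and floors of 3 counts, cover counting error only. Called means past 2-fold, over genes with more than 3 counts in either library, with lower counts raised to 3. The gene that the lists name Sept4 was not matched by that symbol, which left 37 other oligodendrocyte genes. TE was computed from the authors' deposited RPM ratio. Tags of the 8 mice were tested with edgeR 4.0.16 (filterByExpr, TMM, quasi-likelihood) and DESeq2 1.42.0, and mean tails with limma 3.58.1 over genes with at least 50 tags in each mouse, in R 4.3.3, with Benjamini-Hochberg adjustment over all genes tested. In the main tail fit, limma pooled the variance over all genes, so a gene's own spread between mice did not enter its SE or p. Both fits were tested on simulated data. The mice differed from each other by more than sampling noise, with a chi-square per degree of freedom of 1.94 to 4.39. Genes named from a list were its 5 highest in adult cortex by RPKM and those past the test, and the like genes were the 10 with the highest mean Pearson r to the members. RefSeq (GRCm38.p6) gave the annotation and sequences. Some genes that these rules would name are not reported here.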

Additional observations from a re-analysis of the deposited data

Results flagged for a closer look

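The 2 RPF libraries whose titles contradict their other labels were in no comparison, and each held a member above the GFP culture, the nearest control. Mbp was at 12.2 CPM in the first (10 RPFs of a library of 817114), where the GFP culture had 7.12. Cldn11 was at 0.778 CPM in the second (5 RPFs), where the GFP culture had 0.339 on 1 RPF. The 7 cultures with settled labels ranged from 0.339 to 1.61 CPM for Cldn11, which includes that value, and from 4.53 to 10.4 CPM for Mbp, with a counting interval of 5.87 to 22.5 CPM for the first library. No sample stood apart from its group by Dixon's test among 28 groups of 4 mice, a test that flags about 1 in 20 groups by chance.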

How the results depend on the processing

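The count of members with changed tags in the light was 0 under every alternative run, and that of all genes was 128, with 192 without the filter on low counts. The 1 member with a called tail was Mbp, which was chosen by these tails, so the following counts are no evidence for or against it. The count became 0 with a minimum of 20 tags, with log2 tails, with tails centred on each mouse's median, with the replicate block, and with median tails, the last chosen after seeing the data. With a mouse left out it was 0 or 1, and 0 without dark mouse 2, 3 or 4 or light mouse 2 or 3. The genes with changed tails numbered 10, and then 8 with 20 tags, 7 with 100, 1 on the log2 scale, 3 when centred, 1 with the replicate block and 1 with medians, and 1 to 21 with a mouse left out. With a mouse left out, the log2 tag difference ranged from −0.69 to −0.22 for Mag, −0.44 to −0.05 for Cnp, −0.42 to 0.022 for Mog, −0.51 to 0.22 for Mobp, −0.63 to 0.057 for Mal and −0.44 to 0.0050 for Cldn11, the upper values without dark mouse 1. The Cldn11 tail difference ranged from −1.14 to 4.01 nt and was −1.99 nt when centred. Over tags in place of reads, 3 of 7 members were past 2-fold in adult against embryonic hippocampus, and over the authors' RPM 2 were in adult cortex against adult hippocampus. Of pairs of member and library with a TE, 17 of 19 were above the median, and 9 of 9 at 30 RPM. The causes were not tested. Same-numbered mice did not deviate together (r of their tag deviations −0.20 to 0.03), so the numbers were not taken as pairs, and the replicate block gave 113 genes with changed tags. No tag ratio of adult cortex to adult hippocampus was possible, as the methods differ.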

Other observations

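The first of the RPF libraries that were in no comparison held 26 RPFs of Cnp and 10 of Mbp, and none of the other 5 members. The second held 220 RPFs of Cnp, 32 of Mbp, 7 of Mag, 5 of Cldn11, 3 of Mal, 2 of Mog and 1 of Mobp.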
